A study of Homo sapiens with 30 samples.

Results

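The 47 genes described here encode proteins that repair DNA double-strand breaks and crosslinks between DNA strands, or that signal such damage. They were chosen by name, from the pathways of homologous recombination, Fanconi anaemia, end joining, checkpoint signalling and mismatch repair, and matched by Ensembl gene ID to the 37843 genes listed in the count table of LNCaP cells. All 47 were in the table, and all 47 were among the 18403 genes with enough counts to be tested. By role they fall into 10 sets: the BRCA1-BRCA2 axis (5 genes), paralogs and partners of the strand-exchange recombinase (7), end resection (5), RecQ helicases with the BLM complex (4), Fanconi anaemia proteins (9), TONSL-MMS22L (2), checkpoint kinases (4), classical end joining (7), alternative end joining (2) and mismatch repair (2).

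A double-strand break can be rejoined directly by end joining, which works throughout the cell cycle, or copied from the sister chromatid by homologous recombination, which needs a replicated genome and so operates in S and G2 phase. In homologous recombination the break is first trimmed to single strands by resection enzymes, and a recombinase filament is then loaded by the BRCA1-PALB2-BRCA2 chain. Fanconi anaemia proteins unhook strands that have been linked together and pass the resulting breaks to the same machinery. In prostate cancer this pathway is known for inherited and acquired mutations of BRCA2, ATM and their partners, and for the use of inhibitors of PARP1 in such tumours.

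LNCaP is an established, androgen-sensitive human prostate cancer line from a lymph node metastasis, known to lack working mismatch repair. The cells of all 5 groups were first kept in medium with hormone-depleted serum. They then received vehicle or R1881, a synthetic androgen, at 0.03, 0.06, 0.1 or 10 nM for 24 h, and messenger RNA was sequenced from 3 libraries per group, numbered 2, 3 and 4. The study set low doses against a high one because the response of such cells to androgen is biphasic, and here every dose was compared with vehicle, and 10 nM also with 0.1 nM. The labels do not say that the 3 libraries of a group came from separate cultures, so every p-value measures only the spread between these libraries, from 1 cell line.

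Total counts ran from 30666460 to 61199483 per library. The androgen-induced genes KLK3 and FKBP5 checked the labels. KLK3 averaged 102.5 CPM (counts relative to the scaled library size) in vehicle and 774, 1503, 2086 and 3852 CPM at the 4 rising doses, and FKBP5 averaged 58.0 CPM in vehicle and 95.1, 211, 480.4 and 2451 CPM. The 5 libraries numbered 3 stood apart, with 9.31% to 10.7% of counts from mitochondrial genes against 6.14% to 7.69% in the other 10. In every group the summed level of the 47 genes was lowest in the library numbered 3, at 2929 CPM in vehicle, 3517, 3894 and 4071 CPM at 0.03, 0.06 and 0.1 nM, and 3276 CPM at 10 nM. Of 9 luminal prostate markers all 9 were detected, with summed levels of 4420 to 4540 CPM in vehicle and 13000 to 13300 CPM at 10 nM. They did not rise together. At 10 nM against vehicle 5 were higher and 4 lower (edgeR, adjusted p under 0.05), beside 29.3% and 28.3% of all genes tested. Basal markers summed to at most 0.914 CPM in any library, with 3 of 4 in the table. Fibroblast markers summed to 16.4 to 39.7 CPM, almost all of it COL1A1, with DCN and PDGFRA near 0. Leukocyte and endothelial markers summed to 5.16 to 26.4 CPM, almost all of it VWF, with PTPRC, CD3E, CD68, PECAM1 and CDH5 at or near 0.

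Most of the repair genes were higher at the low doses of R1881 than in vehicle, had their highest level at 0.1 nM and were lower again at 10 nM. The group with the highest mean was 0.1 nM for 35 of the 47 genes, 10 nM for 6, 0.03 nM for 4, 0.06 nM for 1 and vehicle for 1. The group with the lowest mean was vehicle for 35 genes and 10 nM for 10. A gene was called changed at an adjusted p under 0.05 in edgeR's quasi-likelihood test, with adjustment over all 18403 genes. At 0.03 nM, 26 of the 47 were called higher and 1 lower against vehicle, beside 5.47% higher and 3.16% lower among all genes tested. At 0.06 nM the counts were 36 higher and 1 lower, beside 16.9% and 14.3%. At 0.1 nM they were 37 higher and 2 lower, beside 21.5% and 20.6%. At 10 nM they were 24 higher and 3 lower, beside 29.3% and 28.3%. The median log2 change of the 47 genes was 0.31, 0.56, 0.68 and 0.26 at the 4 rising doses, where that of all genes lay between -0.03 and 0.00. The libraries are bulk RNA, so a larger share of cells in the phase that uses these genes and more of their RNA per cell cannot be told apart.

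At 10 nM the counts depended on how the libraries were scaled. The median log2 change of all genes in this comparison was -0.01 with TMM scaling and -0.22 with library totals. With library totals in place of TMM scaling, 11 of the 47 were called higher and 12 lower. The 11 were all among the 24, namely RAD54L, RAD54B, RAD51AP1, RAD51C, FANCE, FANCI, MMS22L, MSH6, ATR, XRCC5 and LIG4. Of the others, RMI1 went to a log2 change of -0.03, and FANCF and NBN, which were not called with TMM scaling, were called lower at -0.20 and -0.12. Also called lower with library totals were FANCL, NHEJ1, XRCC2, PRKDC, PALB2, RAD51D and RBBP8. The median of the 47 genes was 0.05 with library totals, and those of end resection, of the RecQ helicases and BLM complex and of alternative end joining were -0.12, -0.02 and -0.01, against 0.09, 0.19 and 0.20 with TMM scaling. BARD1, PMS2 and ATM were lower at 10 nM under either scaling. At the 3 low doses no called member changed direction with the scaling.

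**Figure D1:**
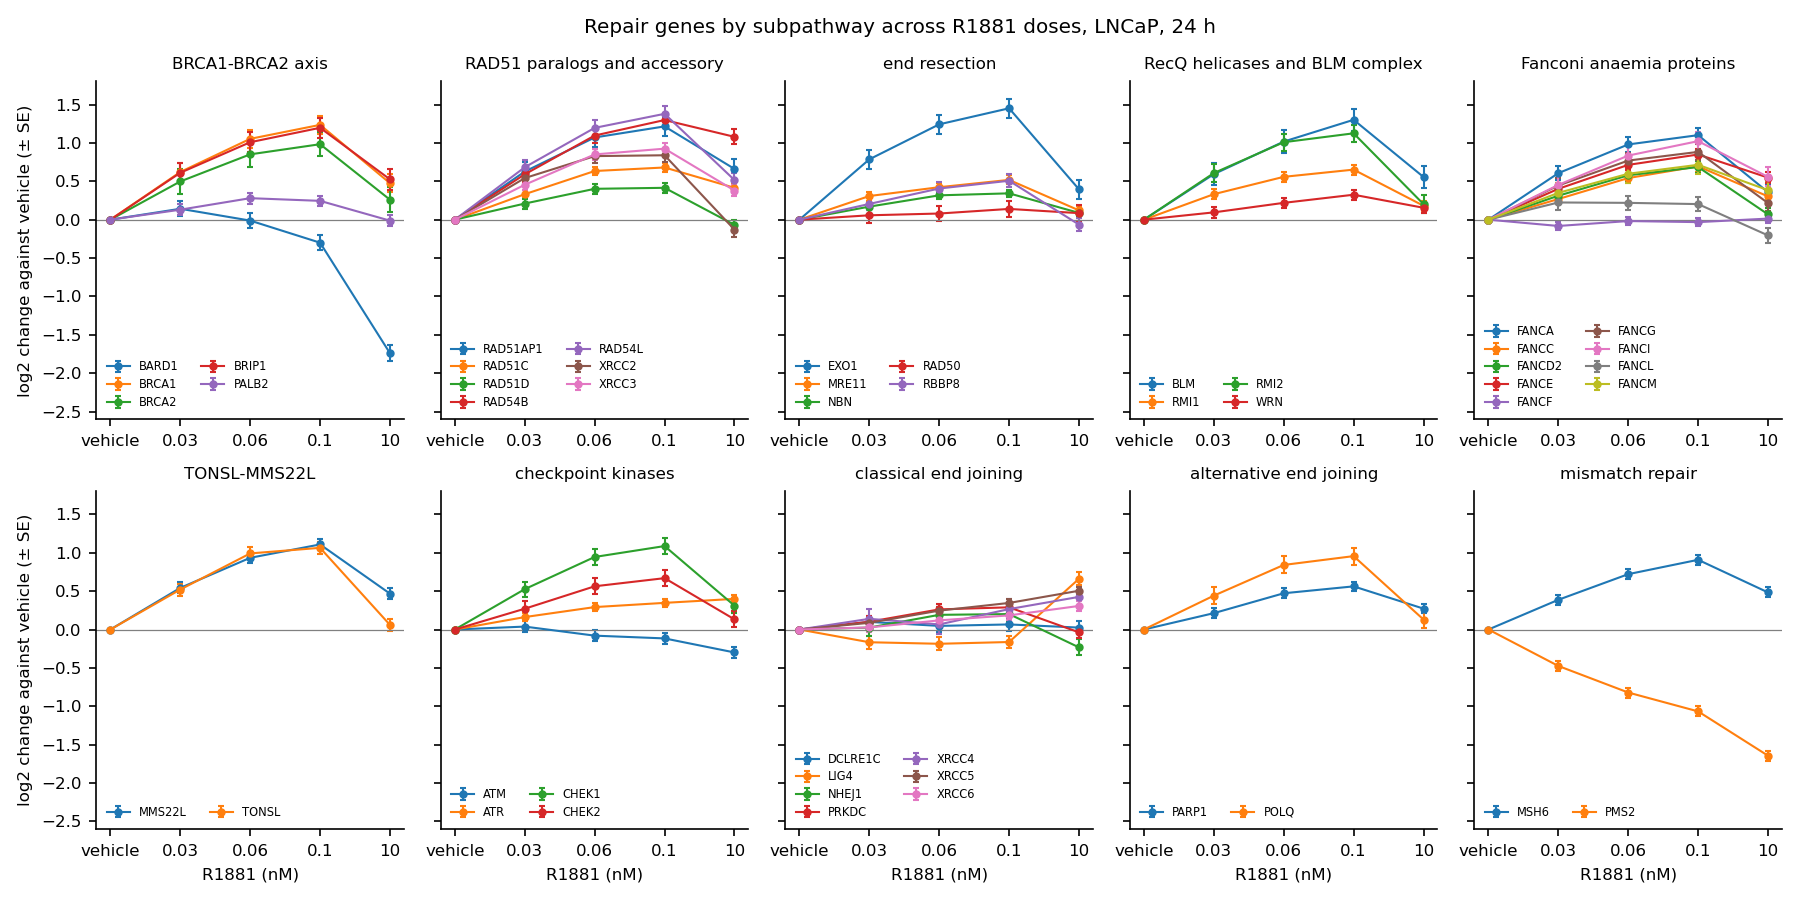
Log2 change of each repair gene against vehicle (y axis, ± SE from the edgeR fit) at 0.03, 0.06, 0.1 and 10 nM R1881 (x axis, doses evenly spaced), with 1 panel for each of the 10 sets and vehicle at 0. Most lines peak at 0.1 nM. PMS2 falls at each dose, to -1.64 at 10 nM, BARD1 lies near 0 up to 0.06 nM and at -1.74 at 10 nM, and LIG4 lies highest at 10 nM, at 0.66.

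The promoters of the repair genes were searched for motifs of cell cycle and androgen control, and a few of them are shown here. RefSeq promoter windows (GRCh38.p14, 250 bases before to 50 after the start) were available for 39 of the 47 genes and were searched on both strands, with overlaps between motifs allowed. Only 1 window per gene was used, so a gene without a match could have one at another start site. The 4 words TTTGGCGC, TTTGCCGC, TTTCGCGC and TTTCCCGC, the consensus bound by E2F factors that drive S phase genes, were found in 8 of the 39 windows (20.5%): those of EXO1, XRCC2, FANCA, FANCC, FANCD2, MSH6, XRCC6 and PMS2. The share was 5.24% of 11984 promoters of tested genes, 3.33% of 27305 promoters in the table and 80.0% of 15 promoters of S phase genes. At 0.1 nM against vehicle, 7 of the 8 genes with a word were called higher and 1, PMS2, lower. Of the 31 without a word, 22 were higher and 1 lower, beside 21.5% higher and 20.6% lower among all genes tested. The CCAAT box was in 20 of the 39 windows (51.3%), against 36.7% for tested genes. TTTGAA, the core of the cell-cycle homology region, was in 4 (10.3%), against 9.7%. The full palindrome of the androgen response element was in 0 of the 39 windows, and in 1 of all 27305.

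Printed below, 5′ to 3′ on the gene's strand, are the windows of 3 raised genes with an E2F word, of PMS2, which has a word and fell, and of BARD1 and LIG4, which have none and moved apart from the rest. Capitals mark the E2F word, which in FANCD2 is read on the opposite strand. They lie at chr1:241847954-241848253 (+) for EXO1, chr3:10026187-10026486 (+) for FANCD2, chr2:47782895-47783194 (+) for MSH6, chr7:6009057-6009356 (-) for PMS2, chr2:214809634-214809933 (-) for BARD1 and chr13:108218300-108218599 (-) for LIG4.
EXO1: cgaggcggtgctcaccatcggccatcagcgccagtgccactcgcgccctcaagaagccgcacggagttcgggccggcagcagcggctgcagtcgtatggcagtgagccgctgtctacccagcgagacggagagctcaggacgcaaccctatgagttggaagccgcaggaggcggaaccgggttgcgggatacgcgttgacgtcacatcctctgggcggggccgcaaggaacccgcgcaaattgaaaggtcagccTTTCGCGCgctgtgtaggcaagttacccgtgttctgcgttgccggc
FANCD2: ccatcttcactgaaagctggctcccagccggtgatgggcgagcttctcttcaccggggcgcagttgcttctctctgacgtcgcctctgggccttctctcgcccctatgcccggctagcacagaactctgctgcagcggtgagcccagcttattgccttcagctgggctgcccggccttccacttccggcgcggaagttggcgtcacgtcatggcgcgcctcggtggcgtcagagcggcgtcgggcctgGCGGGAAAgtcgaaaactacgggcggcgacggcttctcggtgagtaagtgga
MSH6: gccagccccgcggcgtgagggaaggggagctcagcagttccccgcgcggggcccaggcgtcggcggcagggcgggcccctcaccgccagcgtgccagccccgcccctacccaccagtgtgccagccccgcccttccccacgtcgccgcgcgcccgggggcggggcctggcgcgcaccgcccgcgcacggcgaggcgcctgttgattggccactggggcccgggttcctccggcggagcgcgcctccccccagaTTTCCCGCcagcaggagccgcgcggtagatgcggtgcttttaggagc
PMS2: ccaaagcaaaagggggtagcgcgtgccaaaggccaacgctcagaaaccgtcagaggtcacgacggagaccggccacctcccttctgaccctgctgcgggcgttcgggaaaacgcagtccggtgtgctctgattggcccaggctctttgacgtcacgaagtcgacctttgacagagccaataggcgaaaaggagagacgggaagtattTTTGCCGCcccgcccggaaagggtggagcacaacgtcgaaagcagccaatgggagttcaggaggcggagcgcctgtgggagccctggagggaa
BARD1: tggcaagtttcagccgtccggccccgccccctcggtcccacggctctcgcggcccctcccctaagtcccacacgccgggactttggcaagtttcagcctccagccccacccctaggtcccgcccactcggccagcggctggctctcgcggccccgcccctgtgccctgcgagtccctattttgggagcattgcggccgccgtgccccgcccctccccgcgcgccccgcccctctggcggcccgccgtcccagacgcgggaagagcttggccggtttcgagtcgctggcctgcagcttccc
LIG4: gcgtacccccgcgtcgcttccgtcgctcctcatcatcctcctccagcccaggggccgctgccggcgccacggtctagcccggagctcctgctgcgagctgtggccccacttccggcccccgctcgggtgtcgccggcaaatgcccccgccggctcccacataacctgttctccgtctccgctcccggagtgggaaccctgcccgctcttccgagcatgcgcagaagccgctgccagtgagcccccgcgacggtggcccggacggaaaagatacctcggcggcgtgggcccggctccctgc
Among the printed windows, the word lies within a few bases of the start site in EXO1, FANCD2 and MSH6, and further upstream in PMS2. In FANCA and FANCC, not printed, every match lies farther upstream than in PMS2, and in XRCC2 and XRCC6 the word lies downstream of the start. These genes were also called higher at 0.1 nM, so distance from the start did not set PMS2 apart. A match is a string of letters in these windows and shows no binding.

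In the BRCA1-BRCA2 axis BRCA1 and BRIP1 rose at all 3 low doses, BRCA2 and PALB2 at 0.06 and 0.1 nM, and BARD1 did not rise at any dose. BRCA1 (ENSG00000012048.23, chromosome 17, 43044295 to 43170245 on the minus strand, GRCh38 with GENCODE 29 like the other gene positions given) encodes the ubiquitin ligase subunit that opens the way to resection. Its level in the libraries numbered 2, 3 and 4 was 50.7, 38.2 and 53.5 CPM in vehicle, 73.8, 68.6 and 76.4 CPM at 0.03 nM, and 98.4, 89.4 and 107 CPM at 0.06 nM. It was 113, 99.8 and 123 CPM at 0.1 nM, and 73.4, 56.1 and 68.8 CPM at 10 nM. Every library at 0.1 nM lay above every library in vehicle and at 10 nM, and 10 nM did not overlap with vehicle either. The log2 change was 1.235 ± 0.116 (SE) at 0.1 nM against vehicle (adjusted p = 1.56e-07, edgeR) and -0.76 ± 0.114 at 10 nM against 0.1 nM (adjusted p = 3.41e-05).

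BRCA2, which loads the recombinase onto single strands, was not called at 0.03 nM (0.50 ± 0.16, adjusted p = 0.0639). It had 56.2, 50.2 and 59.7 CPM at 0.1 nM, against 30.4, 20.1 and 33.5 CPM in vehicle, a log2 change of 0.98 ± 0.16 (adjusted p = 8.03e-05). At 10 nM it had 37.5, 28.3 and 35.1 CPM, which overlapped with vehicle (log2 change 0.26, 95% interval -0.08 to 0.60, adjusted p = 0.179). With the replicate number as a block in the fit, BRCA2 was called higher there (0.28, adjusted p = 0.00121). BRIP1, a helicase that binds BRCA1, followed BRCA1 closely, with log2 changes of 0.61, 1.009, 1.20 and 0.53 at the 4 rising doses, all called. With library totals the BRIP1 call at 10 nM was lost (0.315, adjusted p = 0.0807). PALB2, the bridge between BRCA1 and BRCA2, was called higher at 0.06 nM (0.28) and 0.1 nM (0.245) only, and the second call was lost without 0.1 nM replicate 2 (adjusted p = 0.0556). All 5 genes of the axis were called lower at 10 nM than at 0.1 nM, beside 19.5% of all genes tested.

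BARD1, the obligate partner of BRCA1 in the ubiquitin ligase, was the one gene of the axis called lower at 10 nM than in vehicle. The gene (ENSG00000138376.11) lies on chromosome 2 from 214725646 to 214809711 on the minus strand. It had 225, 195 and 241 CPM in vehicle, 261, 202 and 265 CPM at 0.03 nM, and 218, 192 and 245 CPM at 0.06 nM. It had 183, 166 and 188 CPM at 0.1 nM, and 64.9, 67.8 and 65.25 CPM at 10 nM. The libraries at 10 nM lay far below all others, and those at 0.1 nM were below every vehicle library by a narrow margin. The mean was 66.0 ± 1.55 CPM at 10 nM and 220.4 ± 23.2 CPM in vehicle (SD, n = 3 each), a log2 change of -1.74 ± 0.104 (adjusted p = 1.07e-10). Against 0.1 nM the change at 10 nM was -1.44 ± 0.103 (adjusted p = 4.99e-09). At 0.1 nM against vehicle it was -0.30 ± 0.0999 (adjusted p = 0.0218), a call lost without vehicle replicate 2, vehicle replicate 4 or 0.1 nM replicate 3 (adjusted p = 0.0582, 0.109 and 0.088).

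Since BRCA1 and BARD1 act as a pair, their levels per kilobase were set against each other within each library, a ratio chosen after the values were seen. BARD1 had 6.72, 7.73 and 6.82 times the RPKM (CPM per kilobase of exon) of BRCA1 in vehicle, 5.36, 4.47 and 5.26 times at 0.03 nM, and 3.36, 3.26 and 3.45 times at 0.06 nM. The ratio was 2.45, 2.52 and 2.32 at 0.1 nM and 1.34, 1.83 and 1.44 at 10 nM, so that no 2 groups overlapped and BARD1 had the higher RPKM in every library. The length used is that of all annotated exons of a gene, so the size of the ratio depends on it. BRCA1 shares exonic bases with another annotated gene on its strand, and whether the read counter gave it all its reads is not known.

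**Figure D2:**
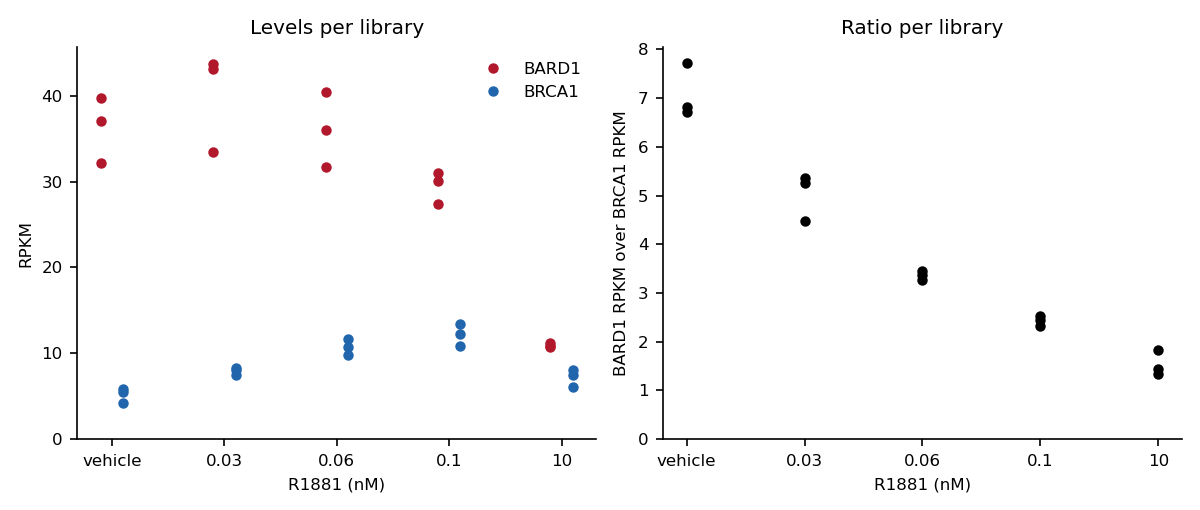
Left, RPKM (y axis) of BARD1 and BRCA1 in each library by R1881 dose in nM (x axis, vehicle at left), 3 libraries per group. Right, the BARD1 to BRCA1 ratio of RPKM in each library, which runs from 6.72 to 7.73 in vehicle and from 1.34 to 1.83 at 10 nM.

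The paralogs and partners of the recombinase were all higher at 0.06 and 0.1 nM, 7 of 7 called at each, with a median log2 change of 0.85 and 0.925. Among all genes tested 16.9% and 21.5% were called higher at these doses. RAD54L (ENSG00000085999.13, chromosome 1, 46247688 to 46278473), a motor protein that helps the filament invade the sister strand, had 22.8, 18.7 and 20.8 CPM in vehicle, and 33.6, 33.6 and 32.7 CPM at 0.03 nM. It had 50.5, 42.8 and 49.1 CPM at 0.06 nM, 55.7, 49.4 and 56.9 CPM at 0.1 nM, and 33.9, 25.1 and 30.3 CPM at 10 nM. Vehicle was lowest with no overlap, and 10 nM overlapped only with 0.03 nM. The log2 change against vehicle was 0.68 ± 0.0977 at 0.03 nM (adjusted p = 0.000204), 1.38 ± 0.0973 at 0.1 nM (adjusted p = 4.74e-09) and 0.52 ± 0.098 at 10 nM (adjusted p = 0.000205). At 10 nM against 0.1 nM it was -0.86 ± 0.0953 (adjusted p = 1.02e-06).

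Its paralog RAD54B kept most of its rise at 10 nM. It was the least expressed of the 47 genes per kilobase (0.540 ± 0.00513 RPKM in vehicle), and it shares exonic bases with FSBP. Its level was 6.01, 6.14 and 6.03 CPM at 10 nM, against 2.88, 2.88 and 2.84 CPM in vehicle, a log2 change of 1.08 ± 0.0963 (adjusted p = 2.7e-08). At 0.1 nM it had 6.95, 6.62 and 7.66 CPM, above all 3 libraries at 10 nM, but the change of -0.22 at 10 nM against 0.1 nM was not called (adjusted p = 0.0611). With library totals RAD54B was called lower in that comparison (-0.37, adjusted p = 0.00497). XRCC2, a member of the paralog complex that stabilises the filament, did not keep its rise at the high dose. It had 20.4, 17.7 and 20.5 CPM at 10 nM, against 38.2, 36.5 and 39.7 CPM at 0.1 nM, a log2 change of -0.97 ± 0.09 (adjusted p = 1.28e-07). Its 10 nM libraries overlapped with those of vehicle (22.2, 18.7 and 23 CPM), with a log2 change of -0.13 (adjusted p = 0.238). With the replicate number as a block, XRCC2 was called lower there (-0.13, adjusted p = 0.0446).

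Among the other 4 of this set, RAD51AP1 was raised most, by 1.215 at 0.1 nM and 0.66 at 10 nM on the log2 scale, followed by XRCC3 (0.925 and 0.38) and RAD51C (0.68 and 0.415), all called at both doses. With library totals the XRCC3 call at 10 nM was lost (0.17, adjusted p = 0.0725). RAD51D was called higher at 0.06 nM (0.40) and 0.1 nM (0.415) and was not called at 10 nM (-0.07, adjusted p = 0.398). RAD51C, RAD51D, XRCC2 and XRCC3 belong to the same family of filament-stabilising proteins, and their rise at 0.1 nM spanned 0.415 to 0.925.

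In end resection EXO1 stood out and the 3 subunits of the MRN complex, which recognises broken ends, rose less or were not called. EXO1 (ENSG00000174371.17, chromosome 1, 241847967 to 241895148), the exonuclease of long-range resection whose promoter is printed above, had 13.7, 10.1 and 13.3 CPM in vehicle, 21.2, 21.8 and 20.8 CPM at 0.03 nM, and 30.2, 25.7 and 31.4 CPM at 0.06 nM. It had 34.5, 29.1 and 37.7 CPM at 0.1 nM and 18.5, 13.6 and 16.7 CPM at 10 nM. The rise at 0.1 nM, 1.45 ± 0.124 (adjusted p = 5.1e-08), was the highest log2 change at that dose among the 47 genes. At 10 nM the libraries overlapped with vehicle in the lowest one, and the change of 0.395 (adjusted p = 0.0128) lost its call without vehicle replicate 3 (adjusted p = 0.097) or 10 nM replicate 2 (adjusted p = 0.0875).

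MRE11, the nuclease of MRN, and NBN, its signalling subunit, were called higher at the 3 low doses and reached 0.52 and 0.34 at 0.1 nM. The NBN call at 0.03 nM (0.17) ended on leaving out any 1 of the 6 libraries compared (adjusted p up to 0.121). RAD50, the scaffold of MRN, was called at no dose, with log2 changes of 0.06 to 0.14. It had only 5.33 ± 0.0361 CPM in vehicle and shares exonic bases with another annotated gene on its strand, so its level is uncertain. RBBP8, the cofactor that starts resection with MRN, was called higher at 0.06 nM (0.41) and 0.1 nM (0.51) and not at 10 nM (-0.06, adjusted p = 0.535).

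The BLM helicase and its partners RMI1 and RMI2, which together dissolve crossed recombination intermediates, rose at every low dose, and WRN, another RecQ helicase, rose less. BLM had 16.97, 15.5 and 18.6 CPM at 0.1 nM, against 8.06, 5.68 and 6.97 CPM in vehicle (log2 change 1.30 ± 0.144, adjusted p = 1.15e-06), with no overlap. RMI2 reached 1.125 ± 0.111 at 0.1 nM and was not called at 10 nM (0.20, adjusted p = 0.14). RMI1 reached 0.65 ± 0.066 at 0.1 nM, and its call at 10 nM (0.18, adjusted p = 0.0265) was lost without vehicle replicate 3 or 4 or 10 nM replicate 2 or 4 (adjusted p from 0.051 to 0.135). At 0.03 nM the call of BLM (0.59, adjusted p = 0.0163) was lost without vehicle replicate 3 or 4 or 0.03 nM replicate 2 (adjusted p = 0.0813, 0.0538 and 0.0644). WRN was called at 0.06 nM (0.22) and 0.1 nM (0.325). The call at 0.06 nM was lost without vehicle replicate 2, vehicle replicate 3 or 0.06 nM replicate 4 (adjusted p = 0.0863, 0.0773 and 0.122).

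TONSL and MMS22L, which form a complex that recruits the recombinase at stalled forks, were 2 of the 3 members with the smallest p at 0.06 nM, and rose at each low dose. MMS22L (ENSG00000146263.12, chromosome 6, 97142161 to 97283217) had 15.1, 14.7 and 16.2 CPM in vehicle, 22.3, 22.4 and 22.2 CPM at 0.03 nM, and 27.3, 31.3 and 29.4 CPM at 0.06 nM. It had 30.4, 34.6 and 34.1 CPM at 0.1 nM and 20.3, 20.6 and 22.6 CPM at 10 nM, with vehicle lowest throughout. The log2 change was 0.54 ± 0.0707 at 0.03 nM (adjusted p = 8.89e-05), 0.93 ± 0.0706 at 0.06 nM (adjusted p = 3.02e-08), 1.11 ± 0.0702 at 0.1 nM (adjusted p = 1.22e-09) and 0.47 at 10 nM (adjusted p = 1.87e-05). TONSL had 52.0, 45.0 and 46.4 CPM in vehicle, 98.9, 90.9 and 95.02 CPM at 0.06 nM, and 104.7, 95.1 and 100 CPM at 0.1 nM. At 0.06 nM its change was 0.99 ± 0.0784 (adjusted p = 5.12e-08). At 10 nM it had 56.5, 43.9 and 49.3 CPM, overlapping with vehicle (0.06, adjusted p = 0.538) and well under 0.1 nM (-1.004 ± 0.0782, adjusted p = 1.42e-08). Of the pair, MMS22L alone was called at 10 nM against vehicle, and the difference between them was not itself tested.

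**Figure D3:**
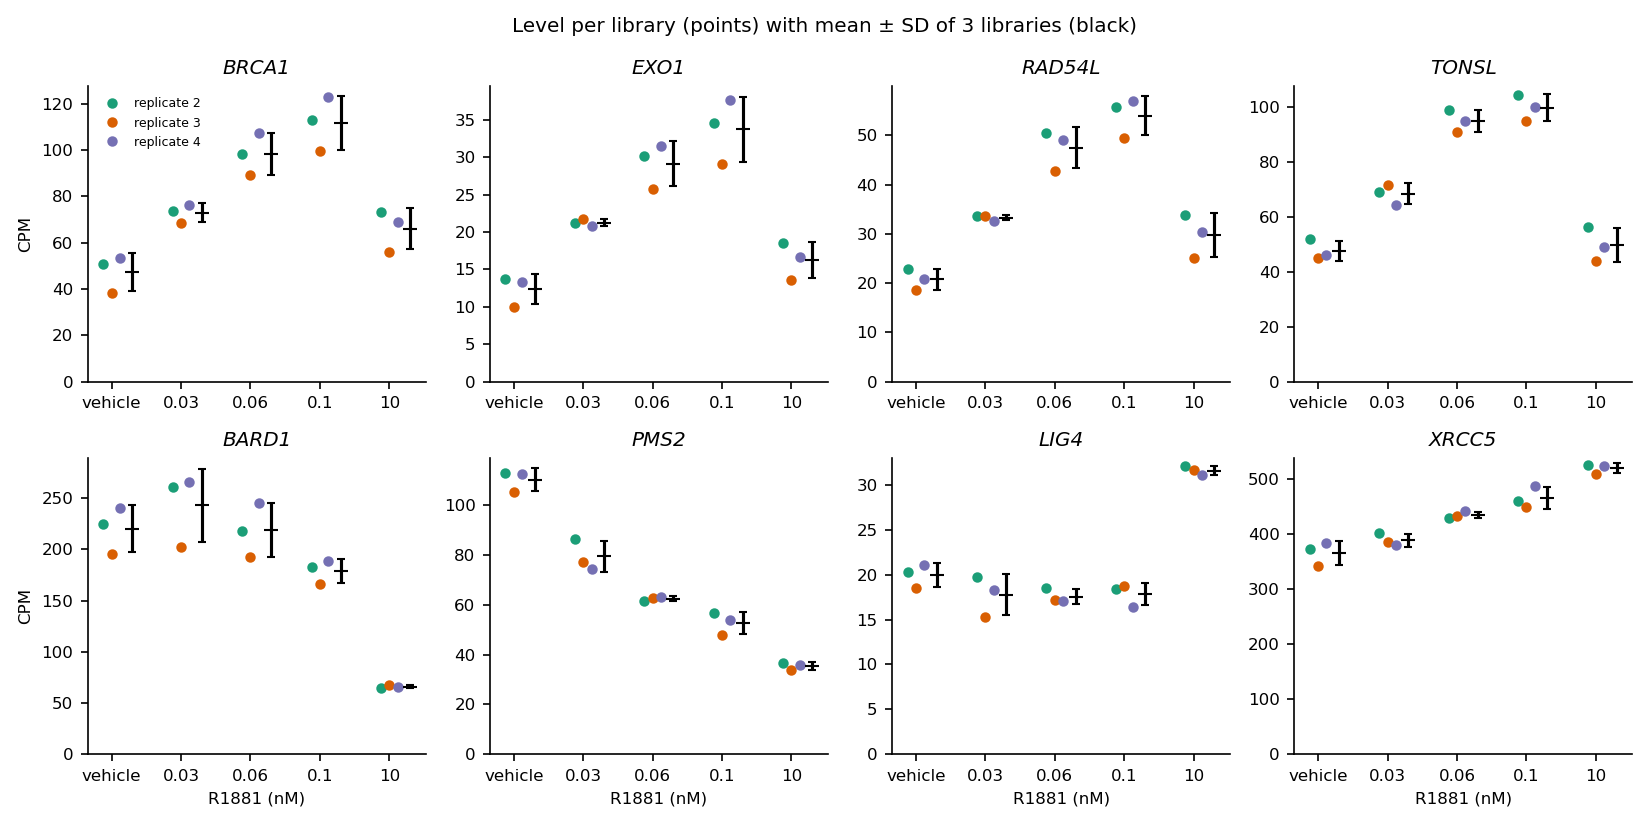
CPM (y axis) of 8 repair genes in each library by R1881 dose in nM (x axis, vehicle at left), coloured by replicate number, with the mean ± SD of 3 libraries in black. BRCA1, EXO1, RAD54L and TONSL are highest at 0.1 nM, BARD1 and PMS2 are lowest at 10 nM, and LIG4 and XRCC5 are highest at 10 nM.

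Of the 9 Fanconi anaemia genes, 6 were called higher at 0.03 nM, 7 at 0.06 nM, 7 at 0.1 nM and 5 at 10 nM. Among all genes tested the shares called higher were 5.47%, 16.9%, 21.5% and 29.3%. The median log2 changes of the 9 genes were 0.35, 0.60, 0.715 and 0.30. FANCA, part of the core ubiquitin ligase, had 49.3, 47.7 and 54.8 CPM at 0.1 nM, against 24.0, 21.9 and 24.8 CPM in vehicle (1.10 ± 0.092, adjusted p = 3.73e-08). At 10 nM its level of 31.7, 26.2 and 32.9 CPM was still above vehicle (0.36, adjusted p = 0.00303), a call lost with library totals (0.15, adjusted p = 0.254). FANCD2 and FANCI form the clamp that the core ligase modifies. FANCD2 had 89.4, 79.7 and 91.2 CPM at 0.1 nM, against 58.4, 47.5 and 56.0 CPM in vehicle (0.69 ± 0.0845, adjusted p = 3.87e-06), and FANCI had 159, 132 and 162 CPM, against 83.2, 60.05 and 80.0 CPM (1.02 ± 0.123, adjusted p = 2.88e-06).

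The clamp's subunits parted at 10 nM, where FANCI was called higher than vehicle (0.56, adjusted p = 0.000795) and FANCD2 was not (0.07, adjusted p = 0.51); the difference between them was not tested. Of the other core subunits, FANCG, FANCE and FANCC rose by 0.88, 0.85 and 0.695 at 0.1 nM. FANCM, the translocase that anchors the core to DNA, rose by 0.715, and its call at 10 nM (0.38, adjusted p = 0.0137) was lost without vehicle replicate 3 or 10 nM replicate 4 (adjusted p = 0.0996 and 0.0513). FANCL, the catalytic subunit of the core ligase, was called at no dose against vehicle (0.20 at 0.1 nM, 95% interval 0.01 to 0.40), although it was lower at 10 nM than at 0.1 nM (-0.41, adjusted p = 0.00193). FANCF, an adaptor of the core, was the flattest, with means of 42.3 to 45.3 CPM across the 5 groups and log2 changes of -0.08 to 0.01. At 0.03 nM the calls of FANCC, FANCD2, FANCG and FANCI were each lost without at least 1 library, vehicle replicate 3 among them (adjusted p = 0.125, 0.14, 0.0529 and 0.125 without it).

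The 4 checkpoint kinases split. CHEK1, the effector kinase of the replication checkpoint, had 52.9, 52.5 and 55.6 CPM at 0.1 nM, against 28.6, 21.02 and 26.1 CPM in vehicle (1.09 ± 0.0986, adjusted p = 1e-07), and CHEK2 rose by 0.67 ± 0.102 (adjusted p = 3.9e-05). Both were lower at 10 nM than at 0.1 nM, by -0.78 and -0.54. CHEK1 shares exonic bases with STT3A on its strand, so its reads could be split. CHEK1 was still above vehicle at 10 nM (0.31, adjusted p = 0.0127), a call lost without vehicle replicate 3 or 10 nM replicate 2 (adjusted p = 0.102 and 0.0839). ATR, which senses single-stranded DNA and activates CHEK1, was not called lower at 10 nM than at 0.1 nM. It had 59.5, 55.9 and 62.8 CPM in vehicle, 73.7, 76.1 and 76.8 CPM at 0.1 nM, and 74.6, 77.4 and 82.9 CPM at 10 nM. Its log2 change at 10 nM against vehicle was 0.40 ± 0.0528 (adjusted p = 3.96e-06), and at 10 nM against 0.1 nM it was 0.05 (95% interval -0.06 to 0.16, adjusted p = 0.473).

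ATM, the kinase that answers double-strand breaks, was lower at 10 nM. It had 61.6, 67.8 and 64.8 CPM at 10 nM, against 73.6, 78.1 and 87.3 CPM in vehicle, with no overlap and a log2 change of -0.30 ± 0.0745 (adjusted p = 0.00225). At the 3 low doses it was not called, with changes of 0.04, -0.08 and -0.12.

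Of the 7 classical end joining genes, 2 were called higher at 0.06 nM, 3 at 0.1 nM and 4 at 10 nM (28.6%, 42.9% and 57.1%), where the shares of all genes called higher were 16.9%, 21.5% and 29.3%. The median log2 change was 0.09, 0.12, 0.20 and 0.31 at the 4 rising doses. At 0.03 nM 0 of the 7 were called by edgeR, with 0 at an unadjusted p under 0.05 and 0 by DESeq2. With TMM scaling it was the only one of the 10 sets whose median was higher at 10 nM than at 0.1 nM. With library totals that turned round, with medians of 0.14 at 0.1 nM and 0.10 at 10 nM. Of the 4 called higher at 10 nM, XRCC5 and LIG4 kept their calls with library totals, and XRCC6 and XRCC4 did not. XRCC5 and XRCC6, the Ku subunits that clamp broken ends, were the most abundant members per kilobase with PARP1 and PRKDC, at 67.1 ± 3.98 and 124.5 ± 8.42 RPKM in vehicle. XRCC5 had 526, 510.0 and 524 CPM at 10 nM, against 374, 342 and 384 CPM in vehicle (0.505 ± 0.0515, adjusted p = 1.56e-07). XRCC6 had 517, 479 and 524 CPM at 10 nM, against 433, 379 and 416 CPM in vehicle (0.31 ± 0.061, adjusted p = 0.000313), although with library totals that call was lost (adjusted p = 0.275). Its rise at 0.1 nM (0.18, adjusted p = 0.0218) was lost without vehicle replicate 3, 0.1 nM replicate 2 or 0.1 nM replicate 4 (adjusted p = 0.107, 0.0877 and 0.0879). For both Ku genes the 10 nM libraries lay above those of vehicle.

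LIG4, the ligase that seals the joined ends (ENSG00000174405.14, chromosome 13, 108207439 to 108218368, minus strand), was called higher at 10 nM and at no lower dose. It had 20.35, 18.5 and 21.1 CPM in vehicle, 19.8, 15.3 and 18.3 CPM at 0.03 nM, and 18.5, 17.2 and 17.03 CPM at 0.06 nM. It had 18.4, 18.7 and 16.4 CPM at 0.1 nM and 32.1, 31.7 and 31.1 CPM at 10 nM. The 10 nM libraries lay above all others. The 0.06 nM libraries lay just below those of vehicle, a difference that was not called (-0.19, adjusted p = 0.108), and those at 0.03 and 0.1 nM overlapped with vehicle. The log2 change at 10 nM was 0.66 ± 0.0818 against vehicle (adjusted p = 1.72e-06) and 0.825 ± 0.0827 against 0.1 nM (adjusted p = 3.33e-07). Without the 5 libraries numbered 3, LIG4 was called lower than vehicle at 0.06 nM (-0.21, adjusted p = 0.0477) and 0.1 nM (-0.23, adjusted p = 0.0259). XRCC4, the partner of LIG4, was called higher at 10 nM (0.425, adjusted p = 0.00814), from a low level of 6.24 ± 0.106 CPM at 10 nM and 4.65 ± 0.504 CPM in vehicle. With library totals that call was lost (0.21, adjusted p = 0.198).

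PRKDC, the DNA-dependent kinase that Ku recruits, was highest at 0.1 nM, like most recombination genes. It had 738, 747 and 801 CPM at 0.1 nM, against 613, 560 and 699 CPM in vehicle (0.29, adjusted p = 0.00359), and 619, 575 and 629.9 CPM at 10 nM, which overlapped with vehicle. With library totals it was called lower at 10 nM than in vehicle (-0.25, adjusted p = 0.0153). Its call at 0.06 nM (0.26) was lost without vehicle replicate 3 or 0.06 nM replicate 4 (adjusted p = 0.0555 and 0.0599). DCLRE1C, the nuclease that trims ends, and NHEJ1, which bridges them, were not called at any dose against vehicle, and NHEJ1 was lower at 10 nM than at 0.1 nM (-0.43, adjusted p = 0.00273). With library totals NHEJ1 was also called lower at 10 nM than in vehicle (-0.44, adjusted p = 0.00163).

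POLQ, the polymerase of alternative end joining, was also highest at 0.1 nM. It had 68.7, 58.1 and 69.1 CPM at 0.1 nM, against 36.7, 28.5 and 35.8 CPM in vehicle (0.96 ± 0.111, adjusted p = 1.89e-06), and 42.1, 30.7 and 37.9 CPM at 10 nM (0.13 against vehicle, adjusted p = 0.337). With the replicate number as a block, POLQ was called higher at 10 nM (0.13, adjusted p = 0.0404). PARP1, the break sensor that acts in the same route, moved less, by 0.56 ± 0.0626 at 0.1 nM (adjusted p = 1.21e-06) and 0.27 at 10 nM (adjusted p = 0.00114). With library totals the PARP1 call at 10 nM was lost (0.06, adjusted p = 0.455). At 0.03 nM the calls of PARP1 (0.21) and POLQ (0.44) were each lost without at least 1 library, vehicle replicate 3 among them (adjusted p = 0.157 and 0.0928 without it).

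The mismatch repair genes went in opposite directions at every dose. MSH6, which recognises mispaired bases, had 61.2, 55.2 and 64.8 CPM in vehicle, 81.0, 80.3 and 75.7 CPM at 0.03 nM, and 101, 95.6 and 102 CPM at 0.06 nM. It had 115, 107 and 118 CPM at 0.1 nM and 87.3, 77.3 and 88.9 CPM at 10 nM. It rose by 0.91 ± 0.0654 at 0.1 nM (adjusted p = 6.06e-09), and the 10 nM libraries lay between those of vehicle and 0.1 nM.

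PMS2 (ENSG00000122512.16, chromosome 7, 5973239 to 6009125, minus strand), the endonuclease subunit that acts after recognition, fell step by step. It had 113, 105 and 113 CPM in vehicle, 86.3, 77.4 and 74.5 CPM at 0.03 nM, and 61.3, 62.8 and 63.2 CPM at 0.06 nM. It had 56.6, 47.7 and 53.7 CPM at 0.1 nM and 36.4, 33.6 and 35.9 CPM at 10 nM, and no 2 of the 5 groups overlapped. The log2 change against vehicle was -0.475 ± 0.0645 at 0.03 nM (adjusted p = 0.000129), -0.82 ± 0.0653 at 0.06 nM (adjusted p = 5.35e-08), -1.07 ± 0.0657 at 0.1 nM (adjusted p = 8.93e-10) and -1.64 ± 0.067 at 10 nM (adjusted p = 5.79e-13). It was the only member whose highest mean was in vehicle, and it was called lower in every fit that left out a library.

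PMS2 has near-identical copies in the genome, and how reads shared with them were counted is not given in the sources used here. At 10 nM against vehicle, of 5 such copies looked up after the values of PMS2 were seen, PMS2P4 (-1.24, adjusted p = 2.07e-09) and PMS2CL (-0.33, adjusted p = 0.00451) were called lower, PMS2P1 was called higher (0.295, adjusted p = 0.00126), and PMS2P3 and PMS2P5 were not called. PMS2P4 averaged 5.43 CPM at 10 nM and 12.8 CPM in vehicle, well below PMS2 itself. Reads exchanged with the copies could shift the level of PMS2, and their part in its fall was not tested.

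Between the high dose and 0.1 nM, 36 of the 47 genes were lower at 10 nM and 2 higher, beside 19.5% lower and 20.6% higher among all genes tested, and the median log2 change was -0.47, against -0.01 for all genes. For 39 genes every library at 10 nM lay below every library at 0.1 nM, beside 24.4% of all genes. By set the median was -0.82 for TONSL-MMS22L, -0.72 for the BRCA1-BRCA2 axis, -0.61 for the RecQ helicases and BLM complex, -0.56 for alternative end joining and -0.54 for the recombinase paralogs and partners. It was -0.50 for mismatch repair, -0.41 for Fanconi anaemia proteins, -0.40 for end resection, -0.36 for the checkpoint kinases and 0.12 for classical end joining, which with library totals became -0.03 while the other 9 sets stayed below 0. The 3 members with the smallest p were BARD1, TONSL and XRCC2, described above. The 2 that were higher, LIG4 and XRCC5, are both of classical end joining. The XRCC5 difference was small (0.16 ± 0.0514, adjusted p = 0.0195) and was lost without any 1 of 0.1 nM replicates 2 and 3 and 10 nM replicates 2 and 4 (adjusted p from 0.0699 to 0.0978), and with library totals it was 0.01. The 9 not called were RAD54B, RAD50, WRN, FANCF, ATM, ATR, DCLRE1C, XRCC4 and XRCC6.

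**Figure D4:**
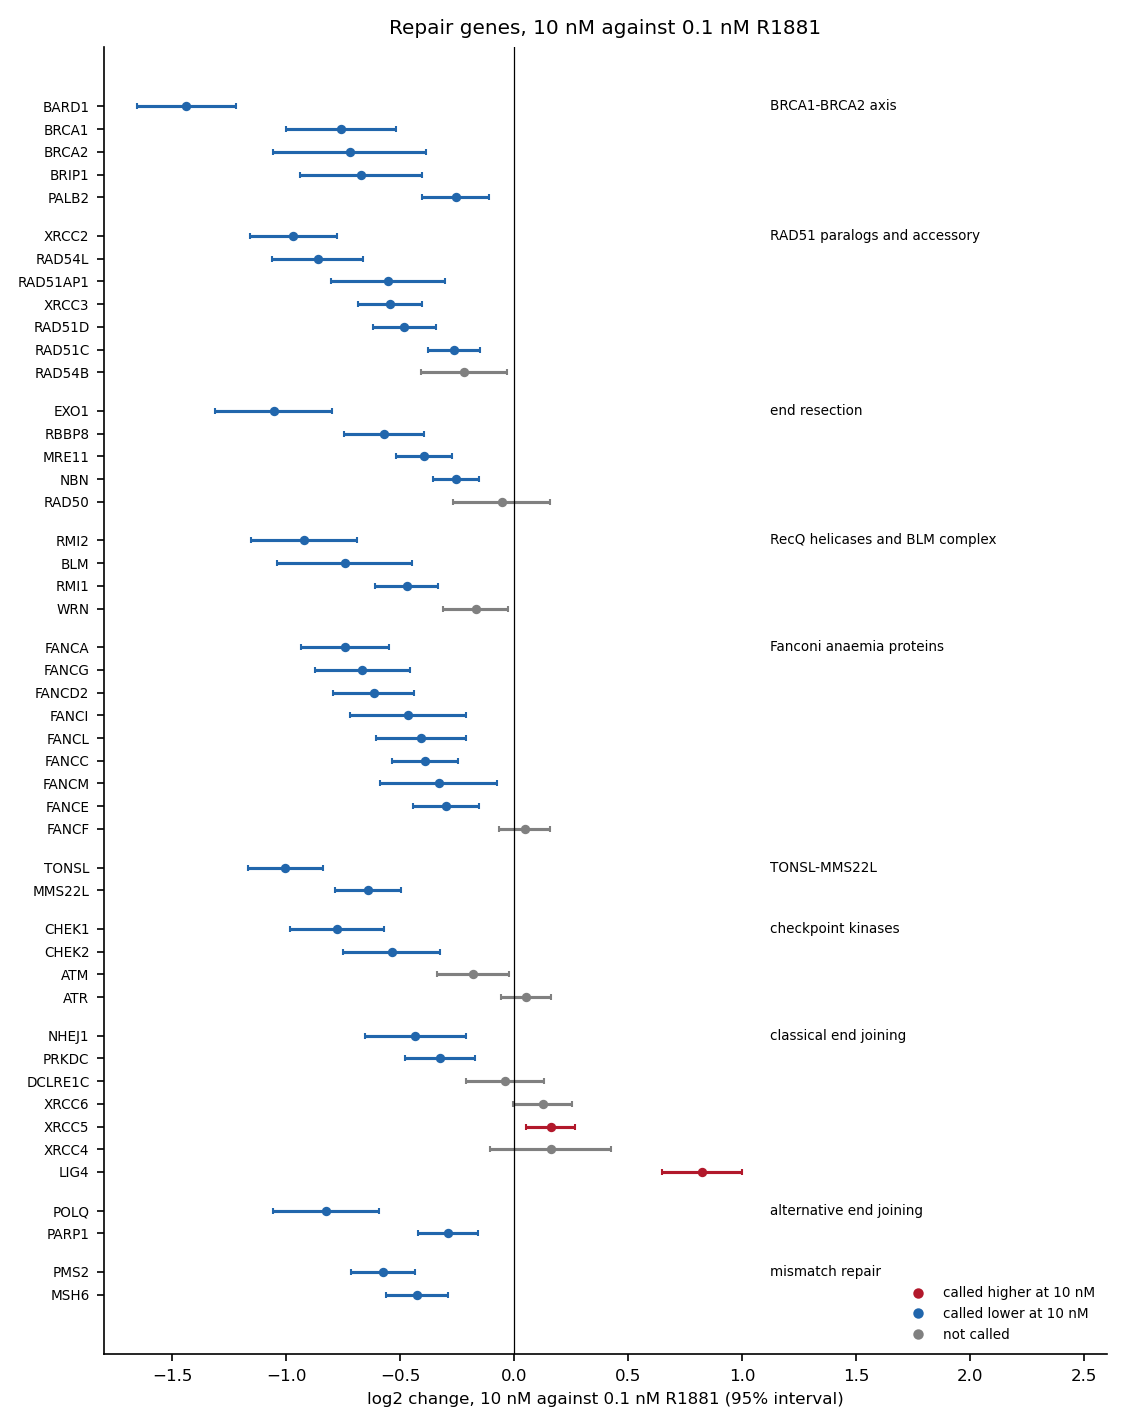
Log2 change at 10 nM against 0.1 nM R1881 (x axis) for each of the 47 repair genes, grouped by set, with the 95% interval of the edgeR fit. The 36 genes called lower lie left of 0, with BARD1 lowest at -1.44, and the 2 called higher, LIG4 and XRCC5, lie right of it at 0.825 and 0.16.

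The signed change of a gene had at most a weak rank relation to its level in vehicle. Across the 47 genes, Spearman's rho between the vehicle RPKM and the log2 change was -0.23 for 0.1 nM against vehicle and 0.04 for 10 nM against 0.1 nM, as a description over genes that share the same libraries. The vehicle level also enters the change at 0.1 nM against vehicle. The size of a change regardless of its sign was not set against the level.

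Genes of DNA replication moved in the same shape. Of 18 S phase genes, 18 were called higher at each low dose and 14 at 10 nM, with medians of 0.585, 0.98, 1.13 and 0.36. Among all genes tested 5.47%, 16.9%, 21.5% and 29.3% were called higher at the 4 rising doses. At 10 nM against 0.1 nM, 17 of the 18 S phase genes were lower (median -0.725). MCM5, a helicase subunit at replication forks, averaged 54.9 CPM in vehicle and 90.6, 122, 135 and 77.6 CPM at the 4 rising doses, and PCNA, the sliding clamp, averaged 103 CPM in vehicle and 152, 200, 222 and 129 CPM. Of 12 mitosis genes, 2, 8, 11 and 7 were called higher at the rising doses, with medians of 0.205, 0.53, 0.76 and 0.47. At 10 nM against 0.1 nM, 2 of the 12 (16.7%) were called lower, beside 19.5% of all genes. One of them was CDK1, the kinase that starts mitosis, at -0.44 (adjusted p = 0.0226). The medians of the repair genes at low doses lay below those of the S phase list. The part of a changed share of S phase cells in the repair genes' changes was not tested.

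**Figure D5:**
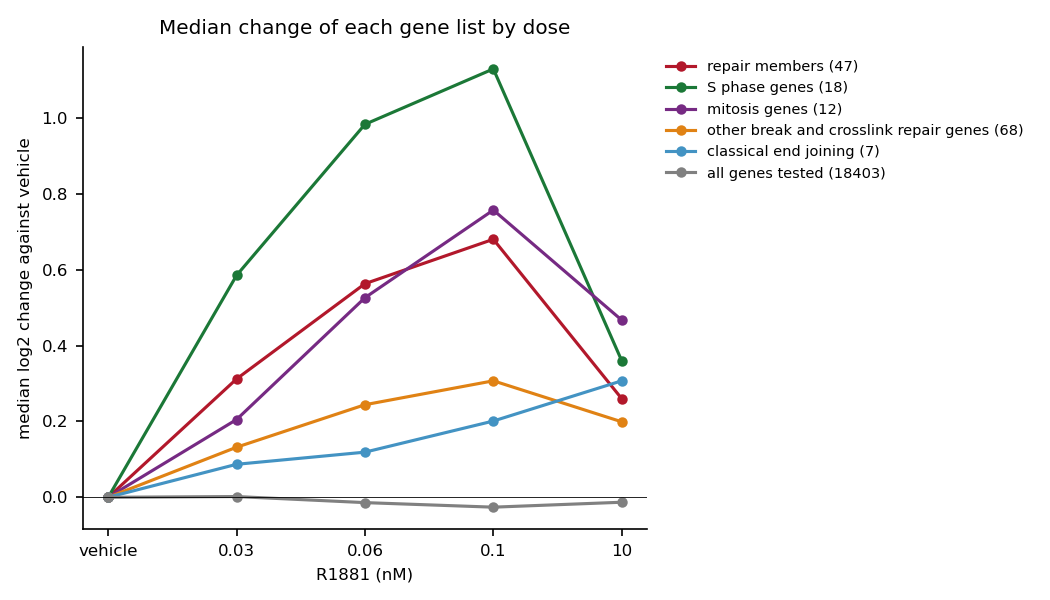
Median log2 change against vehicle (y axis) at 0.03, 0.06, 0.1 and 10 nM R1881 (x axis, doses evenly spaced) for the 47 repair genes, 18 S phase genes, 12 mitosis genes, 68 other repair genes, the 7 classical end joining genes and all 18403 genes tested. The repair and S phase medians peak at 0.1 nM, at 0.68 and 1.13, and the classical end joining median is highest at 10 nM, at 0.31, with TMM scaling, but 0.10 at 10 nM and 0.14 at 0.1 nM with library totals.

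Of 68 other genes of break and crosslink repair, 19, 36, 38 and 37 were called higher at the 4 rising doses, and 7, 9 and 11 were called lower at 0.06, 0.1 and 10 nM, with medians of 0.13, 0.24, 0.31 and 0.20. Their shares called higher were 27.9%, 52.9%, 55.9% and 54.4% at the 4 rising doses, beside 5.47%, 16.9%, 21.5% and 29.3% of all genes tested. Of the 47 members, 55.3%, 76.6%, 78.7% and 51.1% were called higher at the same doses, so at 10 nM their share lay below that of the 68. The shares of the 68 called lower at 0.06, 0.1 and 10 nM were 10.3%, 13.2% and 16.2%, under the 14.3%, 20.6% and 28.3% of all genes. The 4 with the smallest p at 0.1 nM against vehicle were DCLRE1B, a nuclease of crosslink repair and telomeres (1.08 ± 0.0741, adjusted p = 3.36e-09), FEN1, the flap endonuclease (1.40 ± 0.103, adjusted p = 8e-09), TOPBP1, the activator of ATR (0.72 ± 0.063, adjusted p = 6.36e-08), and DNA2, a second enzyme of long-range resection (1.145 ± 0.102, adjusted p = 7.64e-08). At 10 nM against 0.1 nM, 30 of the 68 were lower and 9 higher (44.1% and 13.2%), beside 19.5% and 20.6% of all genes. The 4 with the smallest p there were HUS1, a subunit of the checkpoint clamp, which was higher (0.47 ± 0.0477, adjusted p = 3.96e-07), and DNA2, DCLRE1B and FIGNL1, which were lower (-0.85, -0.605 and -0.90, adjusted p = 2.19e-06, 2.75e-06 and 3.04e-06).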

How the data were processed

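Stranded messenger RNA libraries were made with a KAPA kit, per the labels' protocols. The submitters' processing notes name DESeq2 1.36.0, STAR 2.7.8a and Trimmomatic 0.39, and the build GRCh38, also called hg38. Which read counter was used, and its annotation and strand setting, are not given in the sources used here. Reads could therefore be split for the 7 of the 47 genes that share exonic bases with another gene on the same strand. These are BRCA1, RAD51D, RAD54B, RBBP8, RAD50, CHEK1 and NHEJ1. The same holds for the 21 that share exonic bases on the opposite strand. For 15 LNCaP libraries the authors deposited unnormalised counts per Ensembl gene, all of them integers. A table of 15 further columns, for VCaP cells, was not used because its columns match no label.

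Ensembl IDs were looked up, version removed, in a name table that held 37731 of the 37843. With edgeR 4.0.16 in R 4.3.3, low counts were filtered by group, libraries scaled by TMM, and 1 quasi-likelihood model fitted to all 15 libraries, with two-sided tests, standard errors from the F statistic and Benjamini-Hochberg adjustment over 18403 genes. The script was tested on simulated data. CPM uses scaled library sizes, RPKM divides it by the exonic length in GENCODE 29, and totals of 30666460 to 61199483 counts per library set the precision.

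The members, gene lists and tests were chosen with earlier results of these data known. Every member is described with its set. Full statistics go to the 3 members with the smallest p in each comparison and to members called lower against vehicle, and 4 other repair genes are named for each of 2 comparisons. The comparisons against vehicle share its 3 libraries. Alternatives were RLE size factors, library totals, DESeq2 1.42.0, no filter, a stricter filter (a mean count of 20 and 1 CPM in 3 libraries), a replicate block, fits to the compared libraries alone, leaving out each library, and leaving out the 5 numbered 3.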

Additional observations from a re-analysis of the deposited data

How the results depend on the processing

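The counts of repair genes called higher against vehicle at 0.03, 0.06 and 0.1 nM, and lower at 10 nM against 0.1 nM, stayed within 1.5 times of 26, 36, 37 and 36 under every alternative run. Leaving out 1 library gave 18 to 27, 34 to 36, 35 to 37 and 35 to 38, and 20 to 26 higher and 3 to 4 lower at 10 nM against vehicle. It gave 1 to 2 lower at 0.1 nM, where BARD1 was lost, and 1 to 2 higher at 10 nM against 0.1 nM, where XRCC5 was lost. With library totals 11 genes were higher and 12 lower at 10 nM against vehicle, and 1 was higher against 0.1 nM. Under that scaling the log2 change at 10 nM against vehicle was -0.12 for NBN, -0.029 for RMI1 and -0.20 for FANCF. The scaling moves the median of all genes from -0.01 to -0.22, and the cause of that shift was not tested. The stricter filter gave 5 lower at 10 nM against vehicle, adding FANCL and NHEJ1. Without the 5 libraries numbered 3, 2 were lower at 0.06 nM and 3 at 0.1 nM, and 1 was higher at 10 nM against 0.1 nM. That fit added LIG4 as lower at 0.06 and 0.1 nM (adjusted p = 0.0477 and 0.0259). It added FANCL as higher at both (adjusted p = 0.0414 and 0.0388).

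The labels do not say that equal replicate numbers mark a shared batch. Libraries with the same number deviated together with a median correlation of 0.152 (-0.0138 to 0.315 over 30 pairs), and 15 of 15 libraries correlated best with their own number, as a hint from the data. With the replicate number as a block, 32 and 1 were higher and lower at 0.03 nM, 37 and 2 at 0.06 nM, 38 and 2 at 0.1 nM, 31 and 5 at 10 nM, and 3 and 39 at 10 nM against 0.1 nM. The genes added above vehicle were ATR, BRCA2, FANCM, RAD51D, RBBP8 and CHEK2 at 0.03 nM, XRCC6 at 0.06 nM, XRCC4 at 0.1 nM, and BRCA2 (0.28, adjusted p = 0.00121), FANCG, WRN, MRE11, RMI2, CHEK2 and POLQ at 10 nM. Those added below it were LIG4 at 0.06 nM (-0.19, adjusted p = 0.0419), and NHEJ1 and XRCC2 at 10 nM. At 10 nM against 0.1 nM the block added WRN, RAD54B and ATM as lower and XRCC6 as higher (0.125, adjusted p = 0.013).

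The groups hold 3 libraries of 1 line, and RAD54B, RAD50, XRCC4 and NHEJ1 rest on as few as 122 to 165 counts in a library.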

Other observations

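A few other repair genes are given here, picked after their values were seen. Similar changes occurred among the 47, where LIG4 was called higher only at 10 nM, and BARD1, PMS2 and ATM were lower there than in vehicle. HUS1, a subunit of the checkpoint clamp that helps activate ATR, had a log2 change of 1.005 ± 0.0484 at 10 nM against vehicle (adjusted p = 5.52e-12, edgeR). SHLD2, part of the shieldin complex that protects ends from resection, rose by 0.645 ± 0.0507 (adjusted p = 4.88e-09). SWI5, a cofactor of strand exchange, was called at 10 nM (0.48, adjusted p = 2.12e-06) and not at 0.1 nM (0.04, adjusted p = 0.657). On the lower side at 10 nM against vehicle were APLF, a scaffold of classical end joining (-3.45 ± 0.423, adjusted p = 1.55e-06), and ABRAXAS1, a subunit of a BRCA1 complex (-0.77 ± 0.0855, adjusted p = 4.62e-07). REV3L, the catalytic subunit of a polymerase that bypasses lesions, was lower as well (-0.49 ± 0.0762, adjusted p = 2.44e-05).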
